A study of Rattus norvegicus with 6 samples.

Results

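Fibroblast growth factors (FGFs) and their receptors were described in rat heart muscle 6 h after a coronary artery was tied. The members were the growth factor genes Fgf1, Fgf2, Fgf7, Fgf9, Fgf13, Fgf16, Fgf21 and Fgf23 and the receptors Fgfr1 and Fgfr2, matched through the RefSeq accession of each probe. All 10 genes had a probe, 16 of the 24614 probes carried forward and 10 of the 13876 genes named. Per the labels, the left anterior descending artery was ligated in 3 male Wistar rats, and the border zone of the infarct, found by TTC and EB double staining, was taken at 6 h (arrays M17, M24 and M25). The other 3 male Wistar rats were sham-operated, and a control zone of myocardium was taken at the same time (arrays C4, C5 and C6). Total RNA was labelled with Cy3 and hybridised to 1-colour Agilent arrays, 1 per sample. The samples are pieces of whole tissue, so fewer cells of a type and less RNA per cell cannot be told apart.

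FGFs that leave the cell bind receptor tyrosine kinases together with heparan sulfate, and the receptor then signals through the RAS and ERK pathway, phosphoinositide 3-kinase and phospholipase C gamma. Paracrine members act near the cell that makes them. Endocrine members, among them FGF21 and FGF23, travel in blood and need a klotho protein as co-receptor. FGF13 belongs to a group that stays inside cells and binds voltage-gated sodium channels and microtubules. In the heart FGF2 is made by cardiomyocytes, fibroblasts and endothelial cells and is bound in the matrix, while FGF9 and FGF16 are close relatives known in the mouse for roles in heart growth.

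Some arrays stood apart before any gene was considered. The share of probes well above background was 74.3% to 78.3% on the border-zone arrays and 73.7% on sham C4, but 51.0% on sham C5 and 52.4% on sham C6. The border-zone arrays and C4 were read in 1 scan, and C5 and C6 in a scan each. On C5 and C6 the signal of each of the 34 measured genes listed as markers of neurons of the brain, astrocytes or oligodendrocytes exceeded that on the other 4 arrays, which held for 37.7% of all named genes. Without Gja1, a connexin that heart muscle also makes, their summed level (each gene relative to the 75th percentile of its array) came to 5.32 (M17), 5.66 (M24) and 5.50 (M25) in the border zone and to 7.57 (C4), 30.7 (C5) and 36.4 (C6) in sham. The part of these markers in the results was not tested. The difference of each member is therefore given both against all 3 sham arrays and against C4 alone, the fit with scan as a block, which knows no variation among sham animals. Array M25 lay between M17 and M24 for 97.6% of the 572 probes whose signals on M17 and M24 were over 2-fold apart, and for 70.5% of all probes tested. Whether M25 is a separate animal was not tested, so n counts arrays, and p-values measure only the spread between them.

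The tissue carried the cardiomyocyte markers of its label on every array. All 12 of them were tested, 0 were called by limma and 0 had an unadjusted p below 0.05, and their log2 fold changes had a median of -0.02 (-0.04 in the fit against C4). Of all genes tested, 9.9% rose and 11.9% fell, 21.8% in all, the share to set beside the counts of each marker list. Of the neutrophil markers, 8 of 9 tested rose and 0 fell. Their log2 fold changes had a median of 2.97 (3.64 in the fit against C4). On C5 and C6 only 2 of the list were clearly detected (well above background). In the list, 1 was called when all 6 arrays had to be well above background, 1 with normexp background and 4 without M25. Over all probes tested, those fits called 4297 of 11936, 2293 of 17930 and 509 of 18009. The macrophage and monocyte list had 4 of 9 higher and 2 lower, as it did against C4, and 3 higher and 0 lower without M25. The cardiac fibroblast list had 2 of 9 higher and 3 lower, with a median log2 fold change of -0.67, but 1 higher and 1 lower and a median of -0.29 against C4. Of the endothelial markers 1 of 5 fell (0 against C4). Of the smooth muscle and pericyte markers 1 of 8 rose and 2 fell (0 and 1 against C4). The epicardial and mesothelial list had 2 of 4 higher and 1 lower (1 and 1 against C4).

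Among the 10 members, Fgf2 rose in the border zone, Fgf9 and Fgf16 fell, and the other 7 did not pass the threshold (limma, Benjamini-Hochberg adjusted p below 0.05 over 17930 probes). Over all 11001 genes tested, 9.9% rose and 11.9% fell, 21.8% in all (of probes, 9.01% rose and 10.3% fell, 19.3% in all), so 3 of 10 called is not far from the background share. The same 3 genes passed in the same directions against C4, where 8.79% of genes rose and 8.44% fell, 17.2% in all. All 10 members were well above background on every border-zone array, and 4 on every sham array. Of all 24614 probes, 17894 were so on every border-zone array and 11972 on every sham array. By limma 5 members had an unadjusted p below 0.05, as did 6524 of the 17930 probes tested. The groups did not overlap for Fgf1, Fgf2, Fgf9 and Fgf16, 4 of 10, while 46.8% of genes tested had groups that did not overlap. The median log2 fold change of the members was -0.16 (-0.14 against C4), and that of all genes tested was -0.05 in both fits. Without M25 only Fgf2 passed among the members, and without C4 there were 6, adding Fgf1 and Fgf13 (higher) and Fgfr2 (lower). The count over all probes moved in the same way: 509 of 18009 passed without M25 and 7433 of 18053 without C4.

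The promoters of the 3 genes that passed are shown here, since they are the members whose level moved. Each is 300 bases from RefSeq, build GRCr8, plus strand, from 250 bases before to 50 after the start that the promoter table uses. That start is the gene's start in the gene table for Fgf2, and lies inside the gene's span there for Fgf9 and Fgf16. Capitals mark matches to the motifs searched on both strands: AP-1 (TGANTCA), CRE (TGACGTCA), the hypoxia response core (ACGTG), GC box (GGGCGG) and TATA box (TATAAA). The windows are chr2:122164204-122164503 for Fgf2, chr15:36327108-36327407 for Fgf9 and chrX:74882745-74883044 for Fgf16.
Fgf2: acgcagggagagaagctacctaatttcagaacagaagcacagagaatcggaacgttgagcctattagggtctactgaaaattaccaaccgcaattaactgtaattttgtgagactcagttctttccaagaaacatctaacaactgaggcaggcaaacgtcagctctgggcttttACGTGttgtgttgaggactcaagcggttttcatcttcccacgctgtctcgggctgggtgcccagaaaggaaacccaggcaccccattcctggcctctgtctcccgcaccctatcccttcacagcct
Fgf9: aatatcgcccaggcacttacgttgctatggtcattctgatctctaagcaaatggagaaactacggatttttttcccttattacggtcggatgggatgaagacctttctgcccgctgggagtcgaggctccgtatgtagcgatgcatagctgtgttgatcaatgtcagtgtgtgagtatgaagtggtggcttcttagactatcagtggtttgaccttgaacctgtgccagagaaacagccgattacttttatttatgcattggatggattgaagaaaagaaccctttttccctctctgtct
Fgf16: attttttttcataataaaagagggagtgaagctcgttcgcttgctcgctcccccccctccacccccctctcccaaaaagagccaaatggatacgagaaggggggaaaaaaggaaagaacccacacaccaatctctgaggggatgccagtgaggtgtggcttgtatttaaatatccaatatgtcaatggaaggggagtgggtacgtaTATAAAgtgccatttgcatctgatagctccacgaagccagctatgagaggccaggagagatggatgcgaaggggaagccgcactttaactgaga
The Fgf2 window held 1 ACGTG, 76 bases before the start, and ACGTG occurred in 19.3% of 33469 promoters of the same length. The Fgf16 window held 1 TATAAA, 44 bases before the start, which 14.2% of promoters held. None of the motifs searched had a match in the Fgf9 window. For AP-1, CRE and GC box, present in 7.33%, 1.83% and 33.1% of all promoters, none of the 3 windows held a match. The GC content was 49.7%, 44.7% and 48.7% for Fgf2, Fgf9 and Fgf16.

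**Figure D1:**
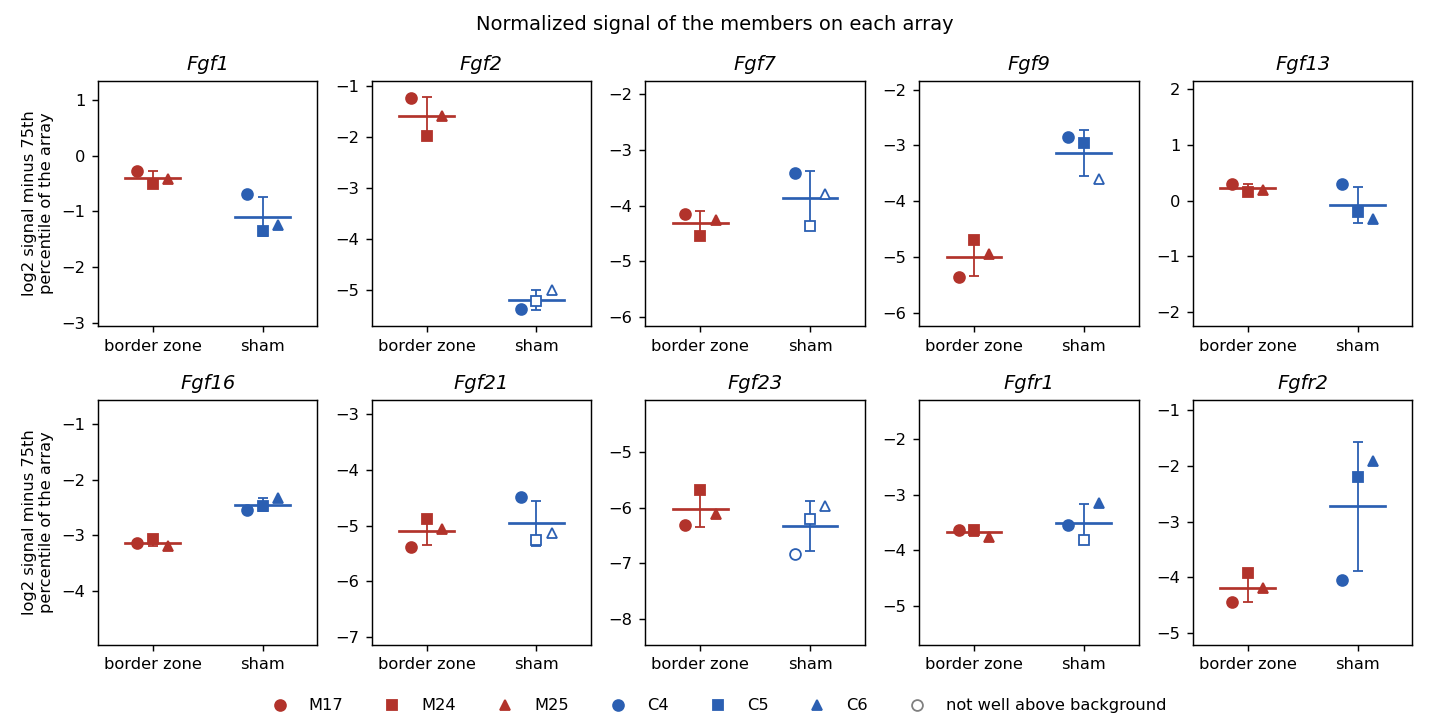
Normalized signal of each member on each array, as log2 of the signal minus the 75th percentile of the array (vertical axis), with the border zone left of sham and open symbols where a probe was not well above background. Fgf2 lies between -1.98 and -1.23 on the border-zone arrays, above all sham arrays, and Fgf9 and Fgf16 lie below them.

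Of the paracrine ligands, Fgf2 (basic FGF, a mitogen for fibroblasts and endothelial cells) had log2 normalized signals of -1.23, -1.98 and -1.59 in border-zone M17, M24 and M25, against -5.38, -5.23 and -5.00 in sham C4, C5 and C6. Every border-zone array was far above every sham array, and the sham probe was well above background on C4 only. The means were -1.60 ± 0.37 in the border zone and -5.20 ± 0.19 in sham (SD, n = 3 each), a log2 fold change of 3.60 ± 0.22 (SE, adjusted p = 0.00124). The sham SD, the SE and this p rest in part on C5 and C6, where the probe was not well above background. With C5 and C6 raised to the lowest signal called well above background there, the rise in the processed signal was at least 8.10-fold on this probe. Against C4, where both sides were measured, it was 13.7-fold (log2 fold change 3.78, adjusted p = 0.0146). Without M25 the log2 fold change was 3.60 (adjusted p = 0.0185). A second probe of Fgf2, printed in several spots, had a log2 fold change of 3.43 ± 0.30 (adjusted p = 0.00259, 3.72 against C4). By the same bound its rise was at least 6.58-fold. Correcting the background with normexp left a log2 fold change of 1.29 (adjusted p = 0.0563), the only alternative that tested Fgf2 and did not call it; it was not tested where all 6 arrays had to be well above background.

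Fgf1 (acidic FGF, a relative of FGF2 that also lacks a classical secretion signal) was measured on all arrays. Its log2 normalized signal was -0.27, -0.51 and -0.41 in the border zone, against -0.69, -1.35 and -1.25 in sham. The groups did not overlap, with C4 the sham array nearest to the border zone. The log2 fold change was 0.69 ± 0.20 (adjusted p = 0.0629, 95% interval 0.20 to 1.19), and 0.29 against C4 (adjusted p = 0.21). Fgf1 passed without C4, at 0.90 (adjusted p = 0.0046), which leaves the sham arrays with the nervous tissue markers. It also passed with the same value of 0.69 when testing was limited to probes well above background on all 6 arrays or when limma's trend and robust settings were used.

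Fgf7 (keratinocyte growth factor, made by mesenchymal cells and acting on epithelium) was dim throughout. It had log2 signals of -4.14, -4.54 and -4.25 in the border zone and -3.42, -4.37 and -3.78 in sham, where only C4 was well above background. The groups overlapped, and the log2 fold change of -0.46 ± 0.27 did not pass (adjusted p = 0.268, 95% interval -1.11 to 0.20). Against C4 it was -0.89 (adjusted p = 0.0571).

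Fgf9 and Fgf16, of 1 FGF subfamily, were both lower in the border zone. Fgf9 (a ligand known in the mouse for signals from epicardium and endocardium to the growing myocardium) had log2 signals of -5.36, -4.69 and -4.96 in the border zone, against -2.85, -2.95 and -3.60 in sham. All border-zone arrays were below all sham arrays, and of the sham arrays C6 was not well above background. The means were -5.00 ± 0.34 in the border zone and -3.14 ± 0.41 in sham (SD, n = 3 each). Fgf9 fell 3.64-fold (log2 fold change -1.86 ± 0.27, adjusted p = 0.00968). The fall was 4.43-fold against C4 (log2 fold change -2.15, adjusted p = 0.0276). It ranged from -2.15 to -1.27 over the alternatives run, and without M25 it missed the threshold at -1.89 (adjusted p = 0.0606).

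Fgf16 (a ligand of cardiomyocytes after birth in the mouse) was well above background on all arrays. It had log2 signals of -3.13, -3.06 and -3.19 in the border zone and -2.54, -2.47 and -2.33 in sham. The groups were each tight and did not overlap, with means of -3.13 ± 0.06 in the border zone and -2.45 ± 0.11 in sham (SD, n = 3 each). Fgf16 fell 1.61-fold (log2 fold change -0.68 ± 0.11, adjusted p = 0.0144), and by 0.59 on the log2 scale against C4 (adjusted p = 0.0407). The call was lost without M17, M24 or M25 in turn (adjusted p 0.0614, 0.0569 and 0.11), with normexp background (adjusted p = 0.0514) and with scaling to the array median (log2 fold change -0.49, adjusted p = 0.0558).

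**Figure D2:**
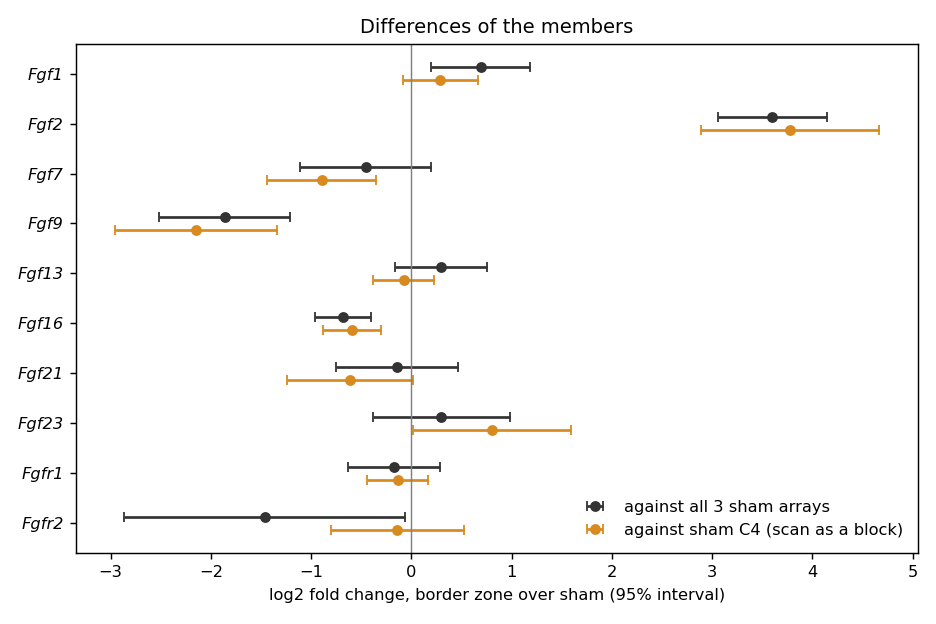
Log2 fold change of each member, border zone over sham, with its 95% interval, against all 3 sham arrays and against C4 alone. The intervals of Fgf2, Fgf9 and Fgf16 lie on the same side of 0 in both fits, while Fgfr2 is at -1.46 against all sham arrays and at -0.14 against C4.

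The endocrine ligands were near background. Fgf21 (a fasting and stress hormone of liver, also made by the heart) had log2 signals of -5.38, -4.88 and -5.06 in the border zone and -4.49, -5.25 and -5.14 in sham, where only C4 was well above background. The groups overlapped, and the log2 fold change of -0.14 ± 0.25 did not pass (adjusted p = 0.702, 95% interval -0.75 to 0.46). Its direction was not stable: it was 0.05 with median scaling and 0.18 with quantile scaling, and -0.61 against C4 (adjusted p = 0.143).

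Fgf23 (a bone hormone that lowers blood phosphate) had log2 signals of -6.31, -5.68 and -6.10 in the border zone and -6.84, -6.19 and -5.97 in sham. No sham array was well above background for it, the groups overlapped, and no fold is given. The log2 difference of 0.30 ± 0.28 did not pass (adjusted p = 0.474), nor did 0.80 against C4 (adjusted p = 0.13). Fgf23 passed with quantile scaling (1.19, adjusted p = 0.049) and in the deposited table of values (0.93, adjusted p = 0.0216), and its sign turned with normexp (-0.60).

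Fgf13, the intracellular member, had log2 signals of 0.31, 0.16 and 0.20 in the border zone and 0.30, -0.20 and -0.33 in sham. C4 lay among the border-zone arrays and C5 and C6 below them, and all arrays were well above background. The log2 fold change was 0.30 ± 0.19 (adjusted p = 0.299, 95% interval -0.16 to 0.76), and -0.08 against C4 (adjusted p = 0.643). Without C4 it passed at 0.48 (adjusted p = 0.0194).

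Of the receptors, Fgfr1 (the main FGF receptor of adult cardiomyocytes) differed little between the groups. Its log2 signals were -3.64, -3.63 and -3.76 in the border zone and -3.54, -3.81 and -3.15 in sham, with C5 not well above background, and the groups overlapped. The log2 fold change was -0.18 ± 0.19 (adjusted p = 0.528, 95% interval -0.64 to 0.28), -0.14 against C4 and 0.01 with median scaling.

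Fgfr2 (a receptor of epithelium and mesenchyme that glial cells also carry) differed most among the sham arrays. On the probe used, its log2 signals were -4.45, -3.91 and -4.19 in the border zone, against -4.04, -2.20 and -1.91 in sham. C4 lay within the border-zone range, while C5 and C6 were far above it and were the arrays high in nervous tissue markers, so the 2 patterns share their arrays. The log2 fold change was -1.46 ± 0.57 (adjusted p = 0.125) against all sham arrays and -0.14 against C4 (adjusted p = 0.701, 95% interval -0.80 to 0.53). Without C4 Fgfr2 passed, at -2.13 (adjusted p = 0.00207). The log2 signal on C4 minus the mean of C5 and C6 was -1.99. The part of the nervous tissue markers in this difference was not tested. The other 5 Fgfr2 probes gave log2 fold changes of -1.71 to -1.53, and -0.38 to -0.09 against C4, and the 6 probes differed on an array by an SD of at most 0.16.

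**Figure D3:**
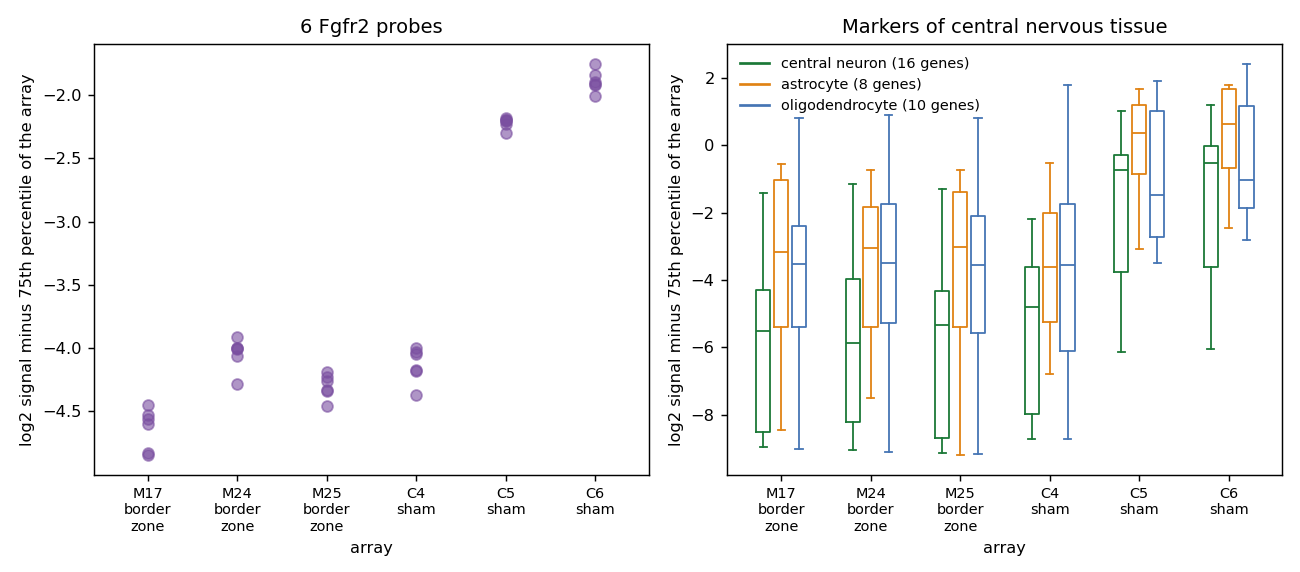
Left, the 6 Fgfr2 probes on each array, as log2 of the signal minus the 75th percentile of the array. Right, markers of central neurons, astrocytes and oligodendrocytes on the same axis and arrays (box plots over the genes of each list), with C5 and C6 above the others in both panels.

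The other FGF ligands, receptors and co-receptors were tested as a list of 19 genes, of which 15 had a named probe and 10 could be tested. By limma 0 of 10 passed and 1 had an unadjusted p below 0.05, with 21.8% of all genes passing, and their median was -0.15 on the log2 scale (-0.06 with C4 as the sham array). Without C4, 3 passed, as did 7433 of 18053 probes. Fgfr3 had log2 signals of -3.53, -3.46 and -3.68 in the border zone and -4.41, -3.12 and -2.64 in sham. Its log2 fold change was -0.17 (adjusted p = 0.813) against all sham arrays and 0.86 against C4 (adjusted p = 0.0324), so the sign turned with the sham arrays used. Fgfr4, measured in sham on C4 only, had a log2 fold change of 0.96 (adjusted p = 0.127) and 0.11 against C4. Fgfrl1, a decoy receptor without a kinase domain, had 0.26 ± 0.13 (adjusted p = 0.192) and 0.41 against C4 (adjusted p = 0.0862). The klotho co-receptor gene Kl was well above background on no array, and Klb had no named probe.

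Of the pathway lists, that of ERK-induced targets and feedback inhibitors had the largest share called. Whether FGF receptors acted on these genes was not tested. Of 16 tested, 8 rose and 1 fell, 56.3% against 21.8% of all genes, and the median of the list was 0.74 on the log2 scale (0.65 in the fit against C4, where 5 rose and 1 fell). Fosl1 (an AP-1 subunit) had log2 signals of -0.90, -0.74 and -0.84 in the border zone, while no sham array was well above background. In the processed signal the rise was at least 20.1-fold, with sham raised to the lowest signal called well above background. With normexp background the log2 fold change of Fosl1 was smaller, at 2.19 (limma adjusted p = 0.019). The adjusted p of 0.0114 for Fosl1 in the main fit (limma) rests on sham signals that were not well above background. The call was lost without M17, M24 or M25 in turn (adjusted p 0.0516, 0.0529 and 0.065). Myc (a growth-related transcription factor) rose by a log2 fold change of 4.37 ± 0.11 (adjusted p = 0.000371, 4.28 against C4). Ccnd1 (cyclin D1, a driver of cell cycle entry) fell, with a log2 fold change of -2.50 ± 0.20 (adjusted p = 0.00209, -2.17 against C4). Fos rose with a log2 fold change of 2.39 ± 0.46 (adjusted p = 0.0221) but did not pass against C4 (1.91, adjusted p = 0.115). The other genes that rose were Ier3, Errfi1 and Phlda1 and the feedback inhibitors Spry2 and Spry4, which dampen receptor signalling. Of these, Errfi1 (adjusted p = 0.0644) and Spry4 (adjusted p = 0.142) did not pass against C4. Against all 3 sham arrays, 7 of the 16 tested did not pass. The listed Dusp, Etv and Spred genes were not among those called, though not every listed gene was tested. Without M25 only 3 genes of the list passed, and without M24 5, as did 509 of 18009 and 1152 of 18115 probes.

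Of the 20 transducers tested, 2 rose and 3 fell (25%), with a median log2 fold change of -0.02. Pik3r1 (the regulatory subunit of phosphoinositide 3-kinase) rose by 1.39 ± 0.21 on the log2 scale (adjusted p = 0.0117, 1.34 against C4, adjusted p = 0.0738). Stat3 (a cytokine-activated transcription factor) rose by 1.33 ± 0.17 (adjusted p = 0.00738, 1.49 against C4). Gab1 (a docking adaptor) fell, with a log2 fold change of -0.88 ± 0.13 (adjusted p = 0.00978, -0.92 against C4). Plcg1 (phospholipase C gamma) fell with -0.73 ± 0.13 (adjusted p = 0.0175, -0.53 against C4). Without M25 limma called 0 of the list, with 6 at an unadjusted p below 0.05. Of all 18009 probes tested without M25, 509 were called and 4207 had an unadjusted p below 0.05.

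Heparan sulfate holds FGFs at the cell surface. Of the 19 genes tested for its proteoglycans, enzymes and FGF-binding proteins, 2 rose and 2 fell (21.1%), near the 21.8% over all genes. Sdc4 (syndecan 4) rose by 2.44 ± 0.20 on the log2 scale (adjusted p = 0.00222, 2.79 against C4), and passed in every alternative run. Hs3st1 (a sulfotransferase), well above background in sham on 2 arrays, rose by 0.95 ± 0.17 on the log2 scale (adjusted p = 0.0175, 1.02 against C4). It did not pass with normexp background (0.17, adjusted p = 0.577) or without C5 (0.83, adjusted p = 0.0515), M17, M24 or M25. Sdc3 fell with a log2 fold change of -0.83 ± 0.14 (adjusted p = 0.016), and Sulf2 (an extracellular sulfatase) with -0.61 ± 0.11 (adjusted p = 0.0187); neither passed against C4. The number called in this list was 12 without C4, 7 without C6, 2 without M17 and 1 without M24, M25 or C5. The count over all probes also moved, from 509 without M25 to 7433 without C4.

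The phosphate and vitamin D genes linked to FGF23 gave 3 of 8 passing (37.5%, with 21.8% of all genes passing), 2 higher and 1 lower, and 1 higher and 1 lower against C4. Slc20a1 (a phosphate transporter) rose by 1.17 ± 0.14 on the log2 scale (adjusted p = 0.00572, 1.26 against C4). Dmp1 (a mineralization protein) rose by 0.82 ± 0.19 (adjusted p = 0.0335), did not pass against C4 (0.75, adjusted p = 0.15), and had its sign turned under normexp (-0.021). Fam20c (a secretory kinase) fell with -0.51 ± 0.10 (adjusted p = 0.0218, -0.55 against C4). Of 11 sodium channel and microtubule partners of intracellular FGFs, Scn1a rose, with a log2 fold change of 1.00 ± 0.21 (adjusted p = 0.0272), and Scn10a fell, with -0.88 ± 0.23 (adjusted p = 0.0486); neither passed against C4. These 2 genes are 18.2% of that list, near the 21.8% over all genes. Among 11 regulators and targets of FGF21, 2 rose and 3 fell (45.5%). Pdk4 (a kinase that limits glucose oxidation) rose by 2.78 ± 0.40 on the log2 scale (adjusted p = 0.00958) but did not pass against C4 (2.46, adjusted p = 0.076). Slc2a1 (a glucose transporter) rose by 1.88 ± 0.28 (adjusted p = 0.0103, 2.22 against C4). Ucp3, Ppara and Ppargc1a, genes of fatty acid use and mitochondria, fell with log2 fold changes of -1.36 ± 0.30, -1.09 ± 0.21 and -1.03 ± 0.12. Against C4, Ucp3 (-1.45, adjusted p = 0.128) and Ppara (-0.73, adjusted p = 0.0648) did not pass, and Ppargc1a did (-1.16, adjusted p = 0.014). Without M25 limma called 0 genes in each of these 3 lists, with 3, 2 and 5 at an unadjusted p below 0.05. In that fit 509 of 18009 probes were called, and 4207 had an unadjusted p below 0.05.

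**Figure D4:**
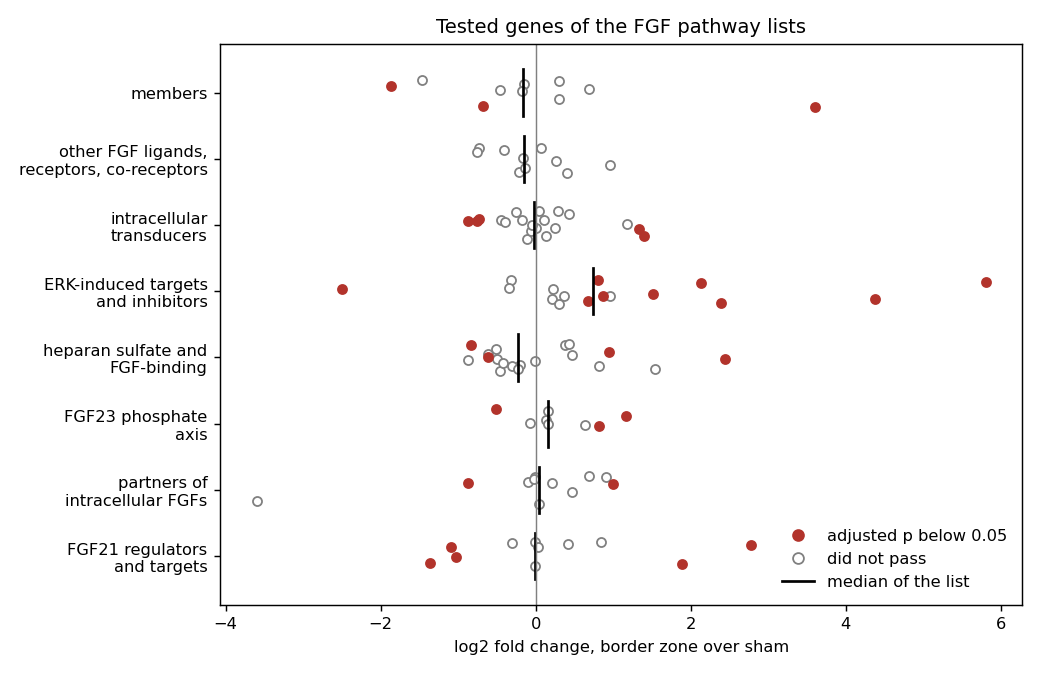
Log2 fold change, border zone over sham, of every tested gene of the members and of the lists around them, filled where the adjusted p was below 0.05, with a line at the median of each list. ERK targets and inhibitors have their median at 0.74, and the members theirs at -0.16.

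The genes most like the members that passed were found by the root mean square difference of mean-centred log2 signals over the 6 arrays, among 10980 genes. Likeness is a description, since all such genes differ between the same 2 groups. Nearest to Fgf2 were Hamp (0.214), Il1r2 (0.230) and Map3k6 (0.252), with log2 fold changes of 3.34, 3.86 and 3.23. Nearest to Fgf9 were Ret (0.133), Syndig1 (0.166) and Capn13 (0.193), with log2 fold changes of -2.00, -1.81 and -1.79. Nearest to Fgf16 were C1h9orf85 (0.0351), Kmt5c (0.0363) and Ppp1r3c (0.0389), with log2 fold changes of -0.62, -0.68 and -0.65.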

How the data were processed

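Messenger RNA of 6 samples was measured on 1-colour arrays. Per the file headers, the deposited scanner files hold intensity values from Agilent Feature Extraction 11.0.1.1, with background subtracted, spatial trend removed and no scaling between arrays, and flags of 0 or 1 for each spot, a unit listed as other. The authors also deposited a table of log2 values whose columns share nearly the same quantiles. It was used only as an alternative. Its method is not given in the sources used here. Of its probes, 24415 matched.

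Here log2 of the processed signal minus the 75th percentile of each array was used. Control and outlier spots were left out, and the spots of each probe averaged. From 24684 probes, 24614 had usable spots throughout. Testing covered the 17930 that every array of a group called well above background (17894 in the border zone, 11972 in sham), which favours genes that are bright in the border zone. The groups were compared with limma 3.58.1 in R 4.3.3 with statmod 1.5.0 (two-sided, Benjamini-Hochberg over all probes tested, threshold 0.05, n = 3 arrays per group). Tables were made in Python 3.11.15 (pandas 2.3.3, numpy 2.4.6) and figures with matplotlib 3.10.9. The fit was tested on simulated data. The planned normexp correction (offset 50) used the median signal, since the files have no mean signal column. Symbols came from a GRCr8 gene table while the headers name rn4, so coordinates are given for the promoter windows only. Where a gene had several probes, the brightest on average stands for it. Members, gene lists and tests were chosen with earlier results of these data known. Genes are named by rule: all members, receptors and co-receptors, up to 4 passing genes per list by absolute log2 fold change, and the 3 nearest genes per likeness search. Ier3, Errfi1, Phlda1, Spry2, Spry4, Plcg1 and Ppargc1a were named after their values were seen. The values of 1 gene taken by the rule are not reported here. Alternatives are given in the closing section.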

Additional observations from a re-analysis of the deposited data

How the results depend on the processing

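Of all probes tested, 3460 passed (1615 higher, 1845 lower). The count was 2293 with normexp background and 1826 with no filter on dim probes, and leaving out 1 array at a time gave 509 (without M25) to 7433 (without C4). Scaling to the array median gave 1935 higher and 929 lower and moved the median over all probes to 0.16 on the log2 scale, against -0.03. Of the members, 3 passed, 1 with normexp background (Fgf9), and 1 (without M25) to 6 (without C4) when an array was left out. Fgf13 turned to -0.076 against C4. Fgf21 turned to 0.045 with median scaling, 0.18 with quantile scaling and 0.18 in the deposited table, and ranged from -0.29 (without C5) to 0.090 (without C4) when an array was left out. Fgf23 turned to -0.60 with normexp and Fgfr1 to 0.013 with median scaling. Fgfr3 turned to 0.024 with median scaling, 0.0016 with quantile scaling, 0.0018 in the deposited table and 0.86 against C4, and ranged from -0.68 (without C4) to 0.21 (without C6). Fgfr4 turned to -0.46 and Dmp1 to -0.021 with normexp. Scn10a missed the threshold in 12 alternatives. The causes were not tested. Dim signal on C5 and C6 limits what could be measured in sham. No paired analysis was possible because, per the labels, the sham-operated rats were not the ligated rats.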

Other observations

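Nudt6 overlaps Fgf2 in the gene table and is known as its antisense partner, and it was chosen after its values were seen. Its log2 normalized signals were -0.64, -0.94 and -0.83 in border-zone M17, M24 and M25, against -0.51, -0.65 and -0.60 in sham C4, C5 and C6. The groups overlapped, and the log2 fold change of -0.22 ± 0.12 (limma adjusted p = 0.262, n = 3 arrays per group) did not pass, nor did -0.29 against C4.

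Not tested, because too few arrays of either group were well above background, were Fgf3, Fgf8, Fgf11 and Fgf15. Fgf15, named Fgf19 in the gene table, was well above background on no array. Fgf10 and Fgf12 are given outside the naming rule. Fgf10, a ligand of epithelial receptors, had a log2 fold change of -0.41 (adjusted p = 0.442, -0.12 against C4). Fgf12, an intracellular relative of Fgf13, had 0.40 (adjusted p = 0.243) and -0.0036 against C4 (adjusted p = 0.989).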
